A study of Saccharomyces cerevisiae with 12 samples.

Results

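HAP1, HAP2, HAP3, HAP4 and HAP5 are the genes for the HAP transcription factors, the activators of respiratory genes in budding yeast. They were taken by gene symbol, 5 of the 7112 features in the table of expected counts, and all 5 passed the low-count filter among 6691 genes tested. The RNAseq data came from 4 groups of MATa cultures with 3 biological replicates each: sis2Δ in 0.5 mM KCl, sis2Δ in 7.35 mM KCl, WT in 0.5 mM KCl and WT in 7.35 mM KCl. Both strains were prototrophs from a cross of S288C-derived parents in which PTR3 had been repaired, and they differed at SIS2, which is replaced by kanMX in sis2Δ. SIS2 encodes an inhibitory subunit of the phosphatase Ppz1, which restrains potassium uptake. All cultures were grown overnight in the regular medium, diluted into the experimental medium with glucose as the carbon source, and held in dilute exponential growth for a day before RNA was taken. Each genotype was a single strain, so a difference between strains cannot be told apart from any other difference between these isolates.

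The library totals lay between 35451323 and 46543107 counts. SIS2 had 1.11 to 1.33 CPM (counts scaled to library size after TMM) in sis2Δ, against 80.7 to 95.3 CPM in WT, in 7.35 mM KCl. At 0.5 mM it had 1.5 to 2.07 CPM in sis2Δ, against 82.9 to 92.5 CPM in WT, so every library matched its strain label. Of the mating type markers, the group means of the 4 a-specific genes MFA1, MFA2, STE2 and BAR1 lay between 166 and 729 CPM. Those of the 3 alpha-specific genes were far lower, with STE3 at 10.2 to 20.7 CPM, MF(ALPHA)2 at 4.81 to 5.996 CPM and MF(ALPHA)1 at 0.353 to 2.66 CPM. A gene was called where edgeR's quasi-likelihood test gave a Benjamini-Hochberg adjusted p under 0.05 over all genes tested. The median log2 fold change of all genes lay between -0.00325 and 0.00232 in the 5 comparisons, and CPM is a share of each library, so a change in total RNA per cell was not measured.

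The HAP complex is a heteromer that binds the CCAAT box. Hap2, Hap3 and Hap5 form the DNA-binding part, related to NF-Y of animals and plants, and Hap4 is the regulatory subunit that carries the activation domain. In yeast grown on glucose HAP4 is repressed, and its abundance is the usual limit on the activity of the complex, which drives genes of the respiratory chain, ATP synthase, the TCA cycle and heme synthesis. Hap1 is a separate activator, a zinc cluster protein that responds to heme and controls cytochrome genes, sterol genes and the hypoxic repressor gene ROX1. In the R64 build, HAP4 (YKL109W) lies at chrXI:232227-233891 on the plus strand and HAP1 (YLR256W) at chrXII:646415-650923 on the plus strand. HAP2 (YGL237C) lies at chrVII:52731-53528 and HAP3 (YBL021C) at chrII:181660-182094, both on the minus strand, and HAP5 (YOR358W) at chrXV:1010161-1010889 on the plus strand. These are the coding sequences of genes with 1665, 4509, 798, 435 and 729 coding nucleotides in the order given. No annotated gene overlapped any of the 5, and the gap between HAP4 and its upstream neighbour KTI12 was 2346 bp.

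The CCAAT box was searched for as CCAAT on both strands (ATTGG on the opposite strand) in the 500 bases before each start codon. Of the 5 HAP genes, HAP3 and HAP4 each held 1 match, whereas HAP1, HAP2 and HAP5 held none. The sequences below show these matches in capitals with 12 flanking bases on either side, 5′ to 3′ on the gene's own strand. They are set beside those of 3 known targets used below: QCR9, the gene whose expression was most like that of HAP4, COX6, and CIT1, which had the largest change with potassium among the listed targets.
HAP4, chrXI:232122-232150, first base of the match at -93 from the start codon: ccacacatatttATTGGtctcctagtaca
HAP3, chrII:182143-182171, at -65: agtagctttccgCCAATcaaactcaagag
QCR9, chrVII:859667-859695, at -207: attatacacgacCCAATcaaacgcgggga
COX6, chrVIII:209353-209381, at -340: taacagaaaattCCAATcaaaaagttggt
COX6, chrVIII:209407-209435, at -286: gctccatacgagCCAATcagggccccgcg
COX6, chrVIII:209478-209506, at -215: aaaagggacctaATTGGtccggtcaaagc
CIT1, chrXIV:631338-631366, at -293: tacttttgtgttATTGGaggatcgcaatc

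The window held CCAAT in 62.4% of 6000 promoters, in 40 of 45 promoters of the target list described below (88.9%), in 19 of 22 of its respiratory chain genes and in 11 of 11 of its ATP synthase genes. In the 250 bases before the start codon the share was 35.4% of all promoters and 73.3% of the target list. COX4, CYC1, CYT1, LSC1 and LSC2 of the list held no such letters in 500 bases. A direct repeat of CGG with 6 bases between, the kind of site Hap1 is known for, was searched on both strands. It was in 4.47% of promoters, in none of the 5 HAP promoters and in 1 of 10 promoters of the Hap1 target list, that of CYC1. In the list of 45 it was in 7 promoters (15.6%). These were 6 of 22 respiratory chain genes, CYC1 among them, and 1 of 11 TCA cycle genes, with none in ATP synthase. The matches are descriptions of letters and no binding was measured here.

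HAP1 needs a further word on its annotation. The reference strain carries a Ty1 element at the end of HAP1, known to leave a gene of reduced function, and the last 100 bases of the annotated coding sequence (2.22% of it) lie within the element, which spans chrXII:650824-656743. The annotation behind the HAP1 counts below is not given in the sources used here, so whether they cover this part is not known. The junction, chrXII:650794-650853 on the plus strand, is shown with the Ty1 part in capitals.
HAP1 junction: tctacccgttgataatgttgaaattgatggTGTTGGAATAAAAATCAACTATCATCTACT
Whether the strains of this study carry the element was not tested, and reads from its last bases could be shared with other Ty1 copies.

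HAP4 was the HAP gene that changed most. It was higher in sis2Δ than in WT in 7.35 mM KCl and higher in 0.5 than in 7.35 mM KCl in both strains, whereas HAP1, HAP2 and HAP5 were called in none of the 5 comparisons and HAP3 in 1. In 7.35 mM KCl, HAP4 had 46.7, 42.9 and 44.9 CPM in sis2Δ, against 33.2, 37.3 and 35.3 CPM in WT. The groups did not overlap, the lowest sis2Δ library being above the highest WT library. The log2 fold change was 0.35 (SE 0.0709, adjusted p = 0.00215, 95% interval 0.20 to 0.50), which is 1.27-fold. The background for this call was 13.4% of genes in either direction, 6.38% higher and 7.04% lower in sis2Δ.

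The genes of the DNA-binding part did not share this change. In 7.35 mM KCl, HAP2 had 16.0, 17.1 and 17.1 CPM in sis2Δ, against 17.2, 18.1 and 17.96 CPM in WT. HAP3 had 18.2, 17.9 and 18.2 CPM in sis2Δ, against 20.0, 19.4 and 18.8 CPM in WT. Both sets of sis2Δ libraries lay just below the WT libraries, but the log2 fold changes of -0.09 for HAP2 and -0.10 for HAP3 did not pass the test (adjusted p = 0.451 and 0.305). HAP5 had 18.7, 17.0 and 16.5 CPM in sis2Δ, against 16.7, 17.5 and 19.4 CPM in WT, and these groups overlapped. HAP1 had 191.8, 186.9 and 184.1 CPM in sis2Δ, against 193.9, 207.5 and 191.6 CPM in WT, which also overlapped. The 95% intervals of the log2 fold change were -0.24 to 0.06 for HAP2, -0.23 to 0.03 for HAP3, -0.19 to 0.12 for HAP5 and -0.19 to 0.04 for HAP1. Groups that did not overlap were thus seen for 3 of 5 HAP genes, against 32.2% of all genes.

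**Figure D1:**
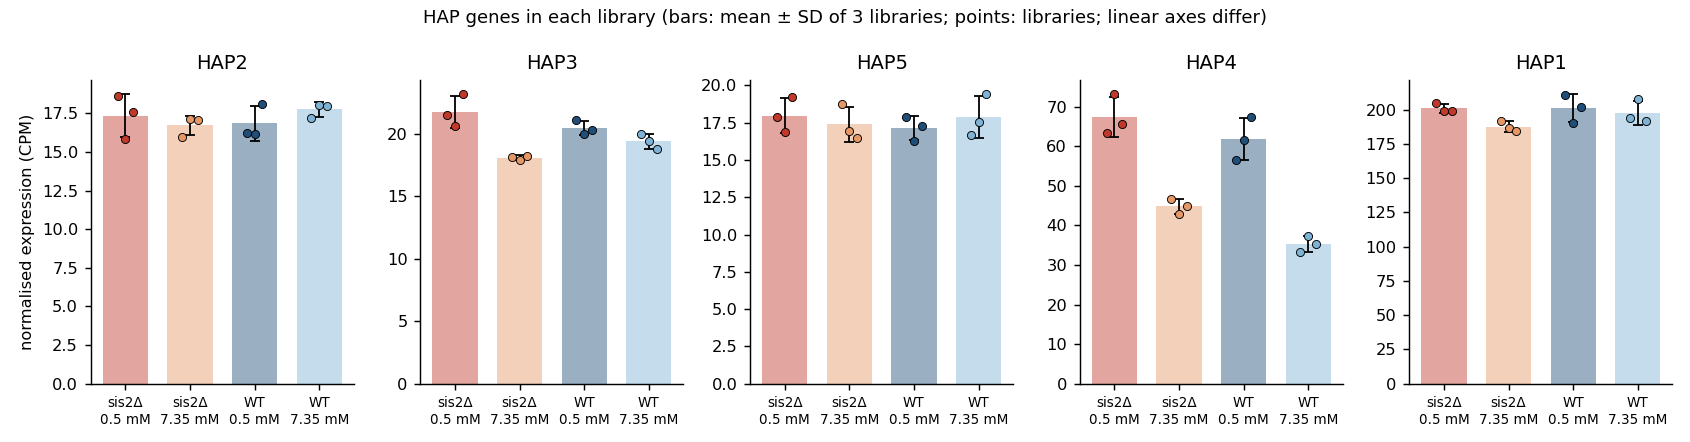
Normalised expression in CPM (vertical axes, linear, each from 0) of HAP2, HAP3, HAP5, HAP4 and HAP1 in sis2Δ and WT in 0.5 and 7.35 mM KCl (horizontal axis), where points are libraries and bars are the mean ± SD of 3 libraries. HAP4 stands at 42.9 to 46.7 CPM in sis2Δ and 33.2 to 37.3 CPM in WT in 7.35 mM KCl. HAP3 in sis2Δ stands at 20.6 to 23.2 CPM in 0.5 mM KCl and 17.9 to 18.2 CPM in 7.35 mM KCl. The group levels of HAP1, of HAP2 and of HAP5 each lie close together.

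No HAP gene was called between the strains in 0.5 mM KCl. HAP4 had 63.4, 73.2 and 65.6 CPM in sis2Δ, against 56.6, 61.6 and 67.3 CPM in WT, and replicate 3 of WT lay above replicates 1 and 3 of sis2Δ. The log2 fold change was 0.12 (95% interval -0.02 to 0.27, adjusted p = 0.413), an interval that includes 0. For the other HAP genes the log2 fold changes were 0.04 for HAP2, 0.09 for HAP3, 0.07 for HAP5 and 0.00 for HAP1. None of the 5 had an unadjusted p under 0.05 in edgeR, DESeq2 called none, and all 5 overlapped between the groups. In this comparison few genes were called at all, 1.78% in either direction and 1.2% higher in sis2Δ, and groups did not overlap for 16.8% of genes.

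Low potassium gave the largest change in HAP4. In sis2Δ, the 63.4, 73.2 and 65.6 CPM in 0.5 mM KCl stood against 46.7, 42.9 and 44.9 CPM in 7.35 mM KCl. This was a rise of 0.59 on the log2 scale (SE 0.0694, adjusted p = 7.20e-07), or 1.5-fold. In WT, the 56.6, 61.6 and 67.3 CPM in 0.5 mM KCl stood against 33.2, 37.3 and 35.3 CPM in 7.35 mM KCl, a rise of 0.81 (SE 0.0704, adjusted p = 5.12e-09), or 1.75-fold. The groups did not overlap in either strain. Potassium changed a large part of the transcriptome, so that 45.9% of genes were called in sis2Δ (24.2% higher) and 47.3% in WT (24.1% higher).

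HAP3 was the other HAP gene that rose in low potassium, and it was called in sis2Δ. It had 21.5, 20.6 and 23.2 CPM in 0.5 mM KCl, against 18.2, 17.9 and 18.2 CPM in 7.35 mM KCl. The log2 fold change in sis2Δ was 0.27 (SE 0.0618, adjusted p = 0.00133), or 1.2-fold. In WT, HAP3 had 21.1, 20.0 and 20.3 CPM in 0.5 mM KCl, against 20.0, 19.4 and 18.8 CPM in 7.35 mM KCl. The log2 value there was 0.08 and did not pass the test (95% interval -0.05 to 0.21, adjusted p = 0.316), although the groups did not overlap.

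HAP2, HAP5 and HAP1 showed little difference between potassium concentrations. For HAP2 the log2 fold change of 0.5 over 7.35 mM KCl was 0.06 in sis2Δ (95% interval -0.09 to 0.20) and -0.07 in WT (-0.22 to 0.07). For HAP5 it was 0.05 in sis2Δ (-0.11 to 0.20) and -0.06 in WT (-0.21 to 0.10). HAP1 had 204.8, 199.2 and 199.2 CPM in 0.5 mM KCl, against 191.8, 186.9 and 184.1 CPM in 7.35 mM KCl, in sis2Δ. These HAP1 groups did not overlap, but the log2 fold change of 0.10 (-0.02 to 0.22) did not pass the test (adjusted p = 0.158), and in WT it was 0.02 (-0.09 to 0.14). Groups did not overlap for 3 of 5 HAP genes in sis2Δ, against 52.8% of all genes, and for 2 of 5 in WT, against 56.3%.

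**Figure D2:**
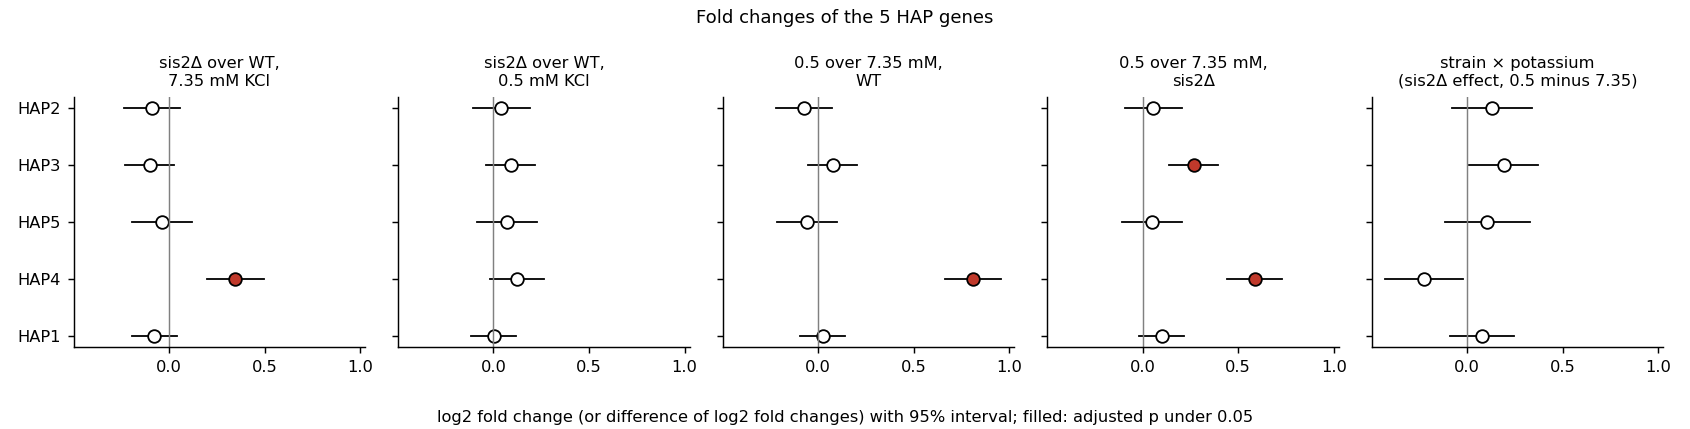
Log2 fold change (horizontal axis) with its 95% interval for the 5 HAP genes in sis2Δ over WT at each KCl concentration, 0.5 over 7.35 mM KCl in each strain, and the difference between the strain effects. Filled points had an adjusted p under 0.05: HAP4 at 0.35, 0.81 and 0.59, and HAP3 at 0.27.

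The difference between the strain effects was itself tested. For HAP4, the effect of sis2Δ in 0.5 mM KCl minus that in 7.35 mM KCl was -0.22 on the log2 scale (SE 0.0986, 95% interval -0.43 to -0.02), which did not pass the adjusted threshold (adjusted p = 0.277). For HAP3 it was 0.19 (SE 0.0872, 0.01 to 0.37, adjusted p = 0.299). These were the 2 HAP genes with an unadjusted p under 0.05 in edgeR, and none was called by edgeR or DESeq2. Of all genes tested, 2.74% were called, and 1.03% were called with a negative difference.

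The 4 HAP4 levels stood in an order. The highest group was sis2Δ in 0.5 mM KCl (67.4 ± 5.12 CPM, SD, n = 3), followed by WT in 0.5 mM KCl (61.8 ± 5.36), sis2Δ in 7.35 mM KCl (44.8 ± 1.87) and WT in 7.35 mM KCl (35.3 ± 2.04). The first 2 of these overlapped, and the other neighbours did not. The same order of group means was found in 14.7% of all genes tested, and among the HAP genes only in HAP4.

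Levels were compared between the HAP genes per kilobase of coding length. In WT in 7.35 mM KCl, HAP3 (44.6 ± 1.37 CPM per kb) and HAP1 (43.8 ± 1.91) were the highest and overlapped, and HAP5 (24.5 ± 1.93), HAP2 (22.2 ± 0.575) and HAP4 (21.2 ± 1.23) were the lowest, with HAP4 overlapping HAP2. In sis2Δ in 7.35 mM KCl, HAP4 had 26.9 ± 1.13 CPM per kb and its libraries were just above those of HAP5 (23.8 ± 1.63) and HAP2 (20.9 ± 0.807). At 0.5 mM, HAP4 had 40.5 ± 3.08 CPM per kb in sis2Δ and 37.1 ± 3.22 in WT, which placed it above HAP2 and HAP5 and below HAP1 and HAP3 in both strains. Among 5895 coding genes, 57.6% in sis2Δ and 54.9% in WT had a lower level per kb than HAP4 in 0.5 mM KCl, and in 7.35 mM KCl 44.4% in sis2Δ and 36.1% in WT.

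HAP4 was also set against the other subunits within each library, as the ratio of its CPM per kb to the geometric mean of HAP2, HAP3 and HAP5. In 7.35 mM KCl the ratio was 1.01, 0.942 and 0.990 in sis2Δ, against 0.705, 0.773 and 0.716 in WT. At 0.5 mM it was 1.25, 1.57 and 1.26 in sis2Δ, against 1.18, 1.34 and 1.38 in WT. Against this mean of 3 genes HAP4 was lower in every WT library in 7.35 mM KCl, near 1 in sis2Δ there, and higher in every library in 0.5 mM KCl. The mean hides the differences between the 3 genes, since HAP4 was below HAP3 in all 12 libraries. Against HAP5 alone the ratio in 7.35 mM KCl was 1.09, 1.11 and 1.2 in sis2Δ and 0.873, 0.931 and 0.795 in WT. The difference in mean log2 ratio was 0.42 for sis2Δ over WT in 7.35 mM KCl and 0.06 in 0.5 mM KCl. For 0.5 over 7.35 mM KCl it was 0.46 in sis2Δ and 0.83 in WT, and the pooled SD within groups was 0.12. These ratios are given as a description with no test.

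**Figure D3:**
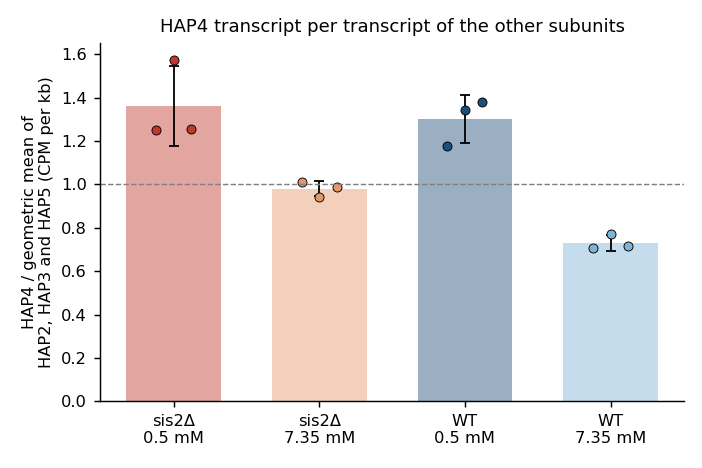
Ratio of HAP4 to the geometric mean of HAP2, HAP3 and HAP5 in CPM per kb (vertical axis, linear, from 0) in the 4 groups, with points for libraries, bars for the mean ± SD of 3 libraries and a dashed line at 1. The WT libraries in 7.35 mM KCl lie at 0.705 to 0.773, below the line, and the 6 libraries in 0.5 mM KCl lie at 1.18 to 1.57, above it.

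Known targets of the HAP complex were described from a list of 45 genes, all tested: 22 of the respiratory chain, 11 of ATP synthase, 11 of the TCA cycle and HEM1, the first enzyme of heme synthesis. Between the strains in 7.35 mM KCl, 31 genes were higher in sis2Δ and none was lower, against 6.38% and 7.04% of all genes. The median log2 fold change was 0.28, against -0.000325 over all genes. The respiratory chain held 19 of these calls of 22, with a median of 0.34, close to the 0.35 of HAP4. ATP synthase held 10 of 11 (median 0.28), and the TCA cycle 2 of 11 (median 0.09). The list was chosen with earlier results of these data known, so that its direction is not independent evidence.

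COX4, a subunit of cytochrome c oxidase, had the largest change of the list, averaging 108 ± 5.53 CPM in sis2Δ and 74.0 ± 2.01 CPM in WT (log2 fold change 0.54, SE 0.0693, adjusted p = 1.69e-05). COX6, of the same complex, averaged 88.4 ± 3.95 CPM in sis2Δ and 61.9 ± 1.2 CPM in WT (0.52, adjusted p = 2.14e-06). In the cytochrome bc1 complex, the log2 fold change was 0.33 for QCR9, 0.34 for QCR8 and 0.36 for CYT1, the cytochrome c1 gene. ATP17, a subunit of the membrane part of ATP synthase, had the largest change of its complex (0.47) and the catalytic-part gene ATP1 had 0.27. Citrate synthase, CIT1, was called at 0.28, whereas KGD1, of alpha-ketoglutarate dehydrogenase, had -0.08 and HEM1 -0.11, neither called. The iso-1-cytochrome c gene CYC1 (0.13), the bc1 core protein gene QCR2 (0.10) and SDH1 of succinate dehydrogenase (0.16) were the 3 respiratory chain genes that did not pass.

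None of the 45 was called between the strains in 0.5 mM KCl in edgeR, against 1.78% of all genes called in either direction. At an unadjusted p under 0.05, 20 were higher in sis2Δ and 1 was lower, and DESeq2 called 2. The share of all genes at that unadjusted threshold was not counted. The median log2 fold change was 0.12, the same as that of HAP4 to 2 decimals, against 0.00102 over all genes. COX7 had the largest value (0.26, adjusted p = 0.133) and ACO1, aconitase, the lowest (-0.16, adjusted p = 0.312).

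Potassium moved nearly the whole list. Of the 45 genes, 43 were higher in 0.5 than in 7.35 mM KCl in sis2Δ (median 0.56) and 41 in WT (median 0.71), with none lower in either strain. Among all genes tested, 24.2% were called higher in sis2Δ and 24.1% in WT. All 22 respiratory chain genes and all 11 ATP synthase genes were called in both strains, and the TCA cycle had 9 of 11 in sis2Δ and 8 of 11 in WT. CIT1 had the largest log2 fold change in both, averaging 329 ± 7.21 CPM in 0.5 mM KCl and 154 ± 11.1 CPM in 7.35 mM KCl in sis2Δ (1.10), and 338 ± 14.4 CPM in 0.5 mM KCl and 126 ± 4.92 CPM in 7.35 mM KCl in WT (1.42). HEM1 was called in sis2Δ (0.20, adjusted p = 0.00945) and not in WT (0.04, adjusted p = 0.587). LSC2, a subunit of succinyl-CoA ligase, was not called in either strain (-0.0030 in sis2Δ and 0.05 in WT).

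**Figure D4:**
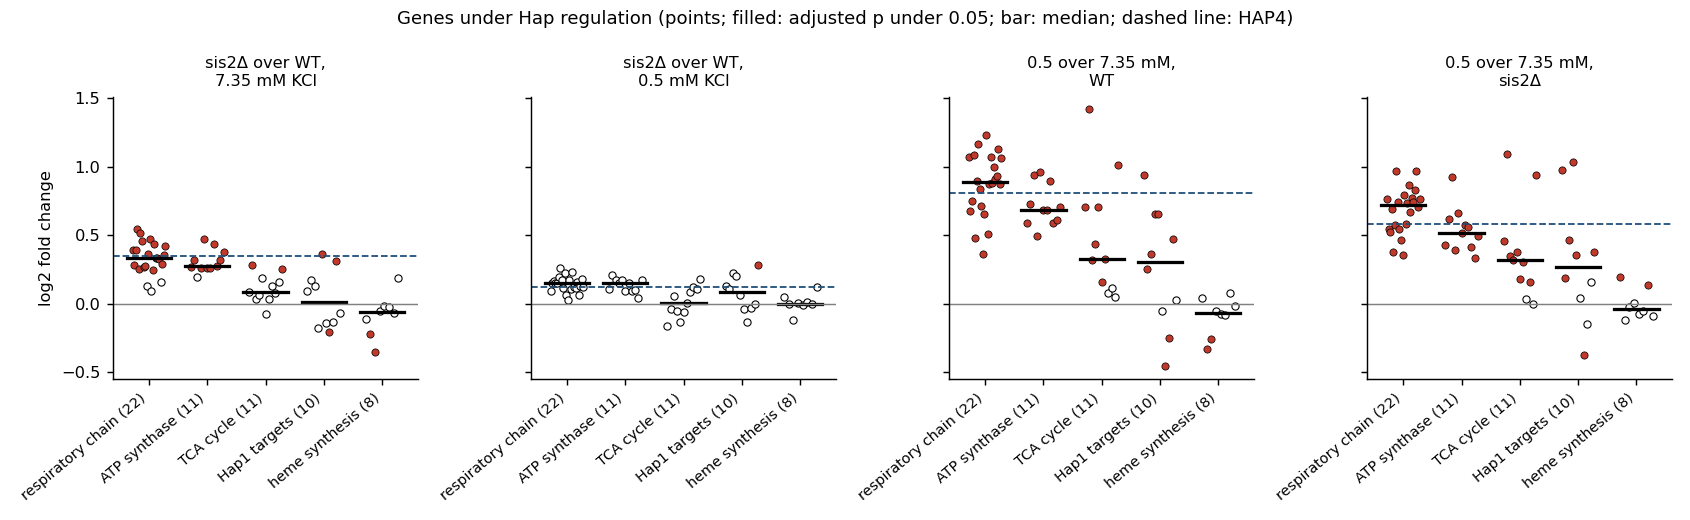
Log2 fold change (vertical axis) of each gene of the respiratory chain, ATP synthase and TCA cycle target lists, of the Hap1 targets and of heme synthesis, in 4 comparisons, with list sizes in brackets. Filled points had an adjusted p under 0.05, bars are list medians and the dashed line is HAP4. The medians of the respiratory chain (0.34, 0.15, 0.89 and 0.72 from left to right) lie near HAP4 (0.35, 0.12, 0.81 and 0.59).

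The order of the 4 HAP4 group means was also that of 37 of the 45 target genes (82.2%), against 14.7% of all genes. It was found in 22 of 22 respiratory chain genes and 11 of 11 ATP synthase genes, but in 4 of 11 TCA cycle genes. The difference between the strain effects was negative in 39 of 45 target genes, with a median of -0.16, against -0.00325 over all genes. Of the 45, 3 were called, COX4 (-0.39), ATP3 (-0.34) and COX6 (-0.32), against 1.03% of all genes called with a negative difference. These calls rested on few libraries: in fits that left out 1 of the 12 libraries in turn, the number called ranged from 0 to 8, and the single-library values are given with the processing alternatives.

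The genes most like HAP4 were ranked by the Pearson correlation of log2 CPM with HAP4 over the 12 libraries, over 6360 genes that averaged 50 counts or more per library. As the libraries fall into 4 groups and share their scaling, r is given as a description. QCR9 was first (r = 0.992), followed by INH1 (0.989), which encodes the inhibitor of the ATP hydrolysis activity of ATP synthase, and AMN1 (0.987), a gene of the mitotic exit network and of mother-daughter separation. SHB17, sedoheptulose bisphosphatase, was last (-0.983). Of the 10 genes ranked highest, 7 were on the target list, and of the 25 ranked highest 16, counts chosen after the ranking was seen. The median r was 0.976 for the respiratory chain list, 0.962 for ATP synthase and 0.898 for the TCA cycle, against -0.0422 over all genes.

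These 4 genes were looked at in the comparisons. INH1 averaged 44.2 ± 4.58 CPM in sis2Δ and 27.6 ± 0.455 CPM in WT in 7.35 mM KCl (log2 fold change 0.68, adjusted p = 3.38e-06). At 0.5 mM it averaged 101 ± 4.53 CPM in sis2Δ and 83.6 ± 7.83 CPM in WT (0.28, adjusted p = 0.0535). QCR9 averaged 45.5 ± 3.2 CPM in sis2Δ and 36.1 ± 1.29 CPM in WT in 7.35 mM KCl, and 78.1 ± 3.53 CPM in sis2Δ and 72.1 ± 8.01 CPM in WT in 0.5 mM KCl. AMN1 had a log2 fold change of 0.18 between the strains in 7.35 mM KCl (adjusted p = 0.0479) and of 0.50 with low potassium in WT. SHB17 had -0.16 between the strains in 7.35 mM KCl, which was not called (adjusted p = 0.123), and -0.59 with low potassium in WT (adjusted p = 3.23e-07).

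Deviations from the group means were compared as well, since the 4 groups alone give high r. Among replicates of a group, r with HAP4 was 0.894 for QCR9, 0.732 for INH1 and 0.771 for AMN1, and -0.888 for SHB17, within a range of -0.974 to 0.925 over all genes. As these 4 were chosen by r over the same libraries, high values within groups follow in part from the choice. The mean of the respiratory chain list had r = 0.989 with HAP4 over the 12 libraries and 0.727 within groups, the ATP synthase list 0.986 and 0.628, and the TCA cycle list 0.957 and 0.255. Single genes had lower r within groups, with a median of 0.545 for the respiratory chain list (-0.0418 to 0.894). That median was 0.465 for ATP synthase and 0.00786 for the TCA cycle, against -0.0369 over all genes. In sis2Δ in 0.5 mM KCl, replicate 2 had the highest HAP4 of the 3 (0.53 above the 12-library mean on the log2 scale) and the highest mean of the respiratory chain list (0.52). In WT in 0.5 mM KCl, replicate 1 had the lowest of both (0.16 and 0.21). In WT in 7.35 mM KCl the 3 libraries had HAP4 at -0.61, -0.44 and -0.52 and the list at -0.54, -0.58 and -0.55, with no shared order.

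**Figure D5:**
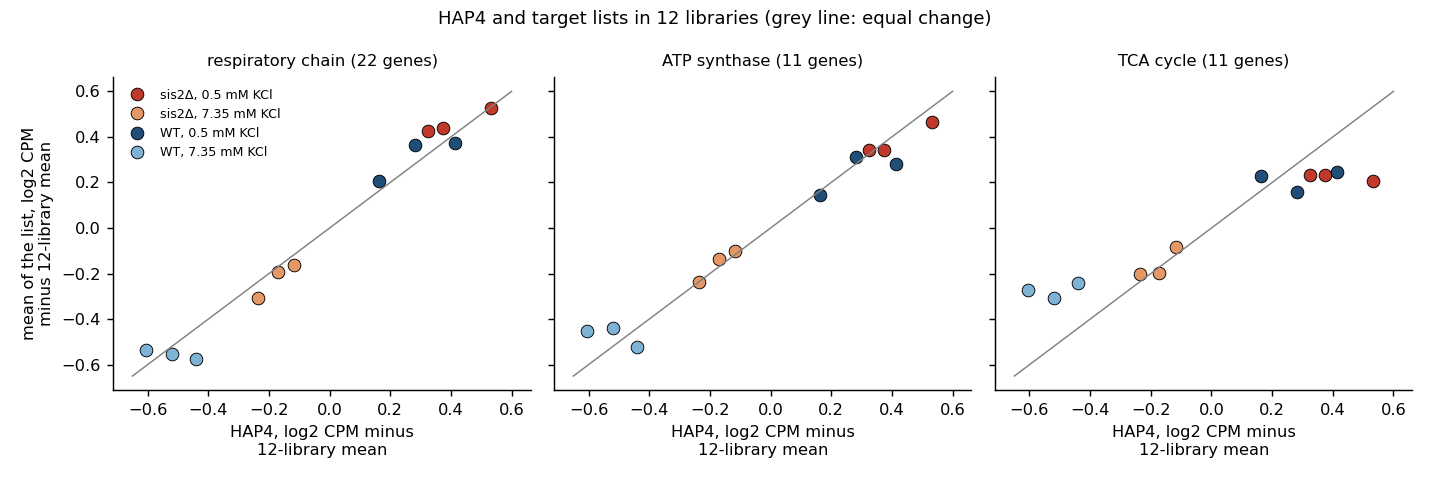
Mean log2 CPM of the respiratory chain, ATP synthase and TCA cycle lists, each gene relative to its mean over the 12 libraries (vertical axes), against HAP4 on the same scale (horizontal axes), with 1 point per library and a grey line of equal change. The respiratory chain list runs along the line, between -0.58 and 0.52, while the TCA cycle list spans only -0.31 to 0.25.

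Targets of Hap1 followed no common direction between the strains in 7.35 mM KCl. Of 10 listed genes, 2 were higher in sis2Δ than in WT, CYT1 (0.36) and ROX1 (0.31), against 6.38% of all genes. HMG1 was the 1 gene called lower (-0.21), against 7.04% of all genes, and the median was 0.02. The flavohemoglobin gene YHB1 was the 1 gene called between the strains in 0.5 mM KCl, against 1.78% of all genes. It averaged 313 ± 11.2 CPM in sis2Δ and 257 ± 11.7 CPM in WT (0.28, adjusted p = 0.0428). With low potassium 6 of the 10 were higher and 1 lower in sis2Δ (median 0.27), and 6 were higher and 2 lower in WT (median 0.31). Among all genes, 45.9% were called in sis2Δ (24.2% higher) and 47.3% in WT (24.1% higher). The catalase T gene CTT1 (0.98 in sis2Δ, 0.94 in WT) and the iso-2-cytochrome c gene CYC7 (1.04 in sis2Δ, 0.66 in WT) rose, and HMG1, a sterol synthesis gene that Hap1 activates, fell (-0.37 in sis2Δ, -0.45 in WT). CYT1 is on the list of HAP complex targets too.

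ROX1, the repressor of hypoxic genes and itself a target of Hap1, averaged 66.3 ± 10.1 CPM in sis2Δ and 53.6 ± 2.24 CPM in WT in 7.35 mM KCl (adjusted p = 0.0145), and 74.4 CPM in both strains in 0.5 mM KCl. Of 8 hypoxic genes, 4 were lower in sis2Δ than in WT in 7.35 mM KCl (against 7.04% of all genes) and none was higher (6.38%). They included the cell wall mannoprotein gene TIR1 (16.8 ± 3.16 CPM in sis2Δ and 37.5 ± 4.99 CPM in WT, log2 fold change -1.16, adjusted p = 2.60e-07), ANB1 (-1.14), the hypoxic form of translation factor eIF5A, and the ADP/ATP carrier gene AAC3 (-0.49). At 0.5 mM none of the 8 was called between the strains in edgeR, against 1.78% of all genes. At an unadjusted p under 0.05, 1 was lower. With low potassium 4 of the 8 were higher and none lower in sis2Δ, whereas in WT 2 were higher and 3 lower, against 45.9% of all genes called in sis2Δ and 47.3% in WT. TIR1 fell in WT, with 16.4 ± 0.808 CPM in 0.5 mM KCl and 37.5 ± 4.99 CPM in 7.35 mM KCl (-1.19, adjusted p = 1.50e-08), and in sis2Δ it had -0.14 (adjusted p = 0.354). AAC3 (-0.24) and HEM13 (-0.26) fell in WT as well. ANB1 rose in sis2Δ (1.15, adjusted p = 0.000167), and in WT it had 0.32 (adjusted p = 0.171). COX5B, the hypoxic counterpart of COX5A, rose in both strains (0.57 in sis2Δ and 0.55 in WT), as did COX5A (0.38 in sis2Δ and 0.48 in WT).

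Heme synthesis supplies the signal that Hap1 reads. Of 8 genes, 2 were lower in sis2Δ than in WT in 7.35 mM KCl and none was higher, against 7.04% and 6.38% of all genes. The 2 were HEM13 (91.5 ± 0.777 CPM in sis2Δ and 117 ± 0.946 CPM in WT, -0.35, adjusted p = 0.000198), which encodes coproporphyrinogen oxidase, and HEM12 (-0.22). The same 2 were lower in 0.5 than in 7.35 mM KCl in WT (-0.26 and -0.33). In sis2Δ, HEM1 (0.20) and HEM3 (0.14) were higher in low potassium, so that 2 of 8 were called in each strain. This was below the share of all genes called, 45.9% in sis2Δ and 47.3% in WT.

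HAP4 is under glucose repression, and 19 genes of that pathway were examined. In 7.35 mM KCl, 2 were higher and 3 lower in sis2Δ, against 6.38% and 7.04% of all genes. ADR1, an activator of glucose-repressed genes, averaged 61.0 ± 8.65 CPM in sis2Δ and 34.0 ± 1.87 CPM in WT (0.85, adjusted p = 1.16e-06), and the hexokinase gene HXK1 rose by a log2 fold change of 0.47. The repressor gene MIG3 was lower (-0.30, adjusted p = 0.00886), as were TOS3 (-0.26), a kinase that activates Snf1, and SIP1 (-0.21), a subunit of the Snf1 complex. The repressor gene MIG1 (-0.01), the kinase gene SNF1 (-0.08), HXK2 (-0.02), REG1 (0.05) and the activator gene CAT8 (-0.26, adjusted p = 0.0672) were not called. None of the 19 was called between the strains in 0.5 mM KCl, against 1.78% of all genes. At an unadjusted p under 0.05, 1 was lower. With low potassium HXK1 had the largest rise of the list, 2.58 in sis2Δ and 2.89 in WT, and MIG3 the largest fall, -0.33 in sis2Δ and -0.61 in WT. The list as a whole had 6 higher and 2 lower in sis2Δ and 5 higher and 4 lower in WT, so that 8 and 9 of 19 were called, against 45.9% of all genes in sis2Δ and 47.3% in WT.

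The genes most like the other HAP genes had lower correlations. For HAP3 they were DAL1 (0.943), YPR127W and YPR078C (both 0.940), and RPN8 was the most opposed (-0.937). DAL1, allantoinase, had a log2 fold change of 0.93 with low potassium in sis2Δ. For HAP1 the closest were YIL108W (0.925) and THI20 (0.90), for HAP2 MRX11 (0.838) and SOD1 (0.795), and for HAP5 SCS2 (0.848) and SIT4 (0.769). Between the HAP genes themselves r with HAP4 was 0.624 for HAP3, 0.338 for HAP1, -0.0634 for HAP5 and -0.201 for HAP2. No gene of the target list was among the 3 closest to HAP1, HAP2, HAP3 or HAP5.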

How the data were processed

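RNAseq was done on poly(A) RNA of 12 cultures with a directional library kit. The authors deposited 1 table of expected counts with fractional values (40.1% of values were whole) and no normalization. Per the labels, the submitters' processing notes name bcl2fastq, cutadapt 2.6, STAR 2.7.6a, featureCounts of Subread 1.6.2 and the R64 build. The counting options, the use of strand and the annotation are not given in the sources used here.

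Counts were rounded to whole numbers, filtered by filterByExpr (6691 of 7112 features kept), scaled by TMM (factors 0.960 to 1.03) and fitted in edgeR 4.0.16 (R 4.3.3) with 4 group terms over all 12 libraries, as the study's model joins strain and potassium. The biological coefficient of variation was 5.70%. The 5 contrasts were tested two-sided with glmQLFTest and Benjamini-Hochberg adjustment, and the SE of a log2 fold change was derived from its F statistic. The script was tested on simulated data. DESeq2 1.42.0, its size factors, 2 other count filters, a replicate block, a fit of the 6 libraries compared, a stricter threshold, a minimum fold change and leaving out each library were tried as alternatives. Correlations used log2 CPM with a prior count of 2. The paper describes the replicates only as biological triplicates. The labels give the replicate number as a batch, which pairs the samples: deviations of same-numbered libraries from their group means had a median correlation of 0.0576 over 18 pairs (-0.0996 to 0.279), and those of different numbers -0.0343 over 36 pairs. The study's model has no batch term.

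Genes, promoters and coordinates come from the RefSeq R64 reference, the build named in the notes. Genes named are the 5 HAP genes, SIS2, a fixed set from each list, the largest and smallest fold change of each list in each comparison, the 3 most and 1 least correlated gene of each HAP gene and the nearest annotated genes, plus genes that make up a small count or stand for a list, chosen after their values were seen. The HAP genes and all lists were chosen with earlier results of these data known. The HAP genes had 580.5 to 9066 counts per library, so that counting error adds to the spread between cultures, most for HAP2, HAP3 and HAP5.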

Additional observations from a re-analysis of the deposited data

Results flagged for a closer look

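For 7 of the genes listed, the effect of sis2Δ differed between potassium concentrations by the test of the difference itself in edgeR. They are shown because they were called, and 2.74% of all genes tested were called. The effect in 0.5 mM KCl minus that in 7.35 mM KCl was -0.73 on the log2 scale for ADR1 (adjusted p = 0.00127), -0.67 for CIT2 (0.00072), -0.45 for DLD3 (0.00861) and 1.05 for TIR1 (0.00046), and these 4 were called in all 12 fits that left out a library. It was -0.39 for COX4 (adjusted p = 0.0284), -0.34 for ATP3 (0.0344) and -0.32 for COX6 (0.0277), which are HAP complex targets and were called in 4, 4 and 5 of the 12 such fits. All 7 had their larger strain effect in 7.35 mM KCl.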

How the results depend on the processing

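The calls of HAP4 in 3 comparisons and of HAP3 in sis2Δ between potassium concentrations held in 18 of 18 alternatives of scaling, filter, model, tool and libraries and at an adjusted p under 0.01, and no other HAP gene was called in any of them. With a minimum absolute log2 fold change of 0.5, the call of HAP4 between strains and that of HAP3 were lost. The log2 fold change of HAP4 over these settings ran from 0.31 to 0.40 for sis2Δ over WT in 7.35 mM KCl, 0.75 to 0.88 for low potassium in WT and 0.52 to 0.63 in sis2Δ, and that of HAP3 in sis2Δ from 0.22 to 0.30. With a replicate block HAP4 had 0.35 and HAP3 0.27 in those comparisons, and the block changed no call of a HAP gene. The number of target genes with a called difference of strain effects, 3, became 5 with the replicate block, 7 with DESeq2, 0 at an adjusted p under 0.01, 0 with a minimum absolute log2 fold change of 0.5, and 0 to 8 in fits without 1 library. It was 0 without WT 0.5 mM replicate 3, WT 7.35 mM replicate 3, sis2Δ 0.5 mM replicate 1 or sis2Δ 7.35 mM replicate 1, and 8 without sis2Δ 0.5 mM replicate 2. With that minimum, the HAP genes called became 0 for sis2Δ over WT in 7.35 mM KCl and 1 for low potassium in sis2Δ, and the targets called became 2 and 27 there. For sis2Δ over WT in 0.5 mM KCl, DESeq2 called 2 targets, and fits without 1 library called 0 or 1, with 1 called without sis2Δ 0.5 mM replicate 2. Changes of sign occurred where the log2 fold change was near 0 and not called: for HAP1 between strains in 0.5 mM KCl, -0.0038 with DESeq2 size factors, -0.0021 with no filter, -0.0039 with DESeq2, -0.00080 with the 6 libraries compared, and -0.033 to 0.035 without 1 library. Without 1 library it ran from -0.0025 to 0.065 for HAP1 with low potassium in WT, -0.0058 to 0.10 for HAP2 between strains in 0.5 mM KCl, -0.089 to 0.035 for HAP5 between strains in 7.35 mM KCl, -0.10 to 0.0083 for HAP5 with low potassium in WT and -0.0039 to 0.11 in sis2Δ. The cause of these changes was not tested. The other 433 values for single HAP genes kept their direction and their side of the threshold. The other 206 values, for counts and ratios, stayed within a set margin of the main value. Within such a count, single genes may have crossed the threshold.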

Other observations

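Retrograde genes respond when mitochondrial function falls and supply the TCA cycle with precursors, and 10 of them were examined. With low potassium 5 were higher and 1 was lower in sis2Δ, and 6 were higher in WT, near the share of all genes called (45.9% in sis2Δ and 47.3% in WT). ACO1, IDH1 and IDH2, which are also on the HAP complex target list, were among the genes called higher in both strains. Between the strains 3 of the 10 were higher in sis2Δ than in WT in 7.35 mM KCl, against 6.38% of all genes. CIT2, the peroxisomal citrate synthase, averaged 120 ± 7.44 CPM in sis2Δ and 74.4 ± 3.39 CPM in WT (log2 fold change 0.70, edgeR adjusted p = 2.66e-06), and PYC1, pyruvate carboxylase, 477 ± 164 CPM in sis2Δ and 199 ± 92.3 CPM in WT (1.26, adjusted p = 0.000933). At 0.5 mM none of the 10 was called between the strains in edgeR, against 1.78% of all genes, and 1 was lower at an unadjusted p under 0.05. CIT2 there averaged 517 ± 59.7 CPM in sis2Δ and 508 ± 25.1 CPM in WT. With low potassium CIT2 had the largest change of the list, 2.10 in sis2Δ and 2.77 in WT. The genes of the regulators RTG1 and RTG3 were not called in any of the 5 comparisons.

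The neighbours of HAP4, KTI12 and SLD2, were not called in any comparison, with log2 fold changes between -0.12 and 0.07. At the HAP1 locus, the open reading frame YLR256W-A within the Ty1 element had a log2 fold change of 0.41 with low potassium in WT (adjusted p = 0.000414) and 0.23 in sis2Δ (0.0326), whereas HAP1 was not called. Reads of YLR256W-A may be shared with other Ty1 copies.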
